A study of Mus musculus with 14 samples.

Results

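Potassium channel genes were taken from the deposited count table as every protein-coding gene whose symbol starts with Kcn, followed by lower-case letters and a number. The rule gave 93 of 54532 genes in the table, or 93 of its 22046 protein-coding genes, and covers pore-forming subunits as well as the modifier and accessory subunits that assemble with them. RNA was sequenced in 14 libraries of skeletal muscle from male FVB/N mice, after selection of polyadenylated RNA.

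The study asked how overexpression of c-Myc in endothelial cells, the cells that line blood vessels, bears on the response of mice to a diet that leads to obesity. In the EC-Myc OE mice the tetracycline transactivator tTA is driven by the endothelial Cdh5 promoter and switches on a tetO-driven human c-Myc transgene once doxycycline is taken away, which was done at 4 to 6 weeks of age. The transgene is carried on the Y chromosome, so only males were used. The CT mice were littermates that carry the tetO-Myc transgene but no tTA, and they went through the same doxycycline withdrawal.

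By the labels, the CT mice gave 3 libraries after control diet (CT-CTD) and 3 after western diet (CT-WD). The EC-Myc OE mice gave 4 after control diet (OE-CTD) and 4 after western diet (OE-WD), and the deposited protocol puts each group on its diet for 20 weeks, while the study's account of these samples gives a shorter time. The study's methods name soleus and gastrocnemius, and the labels do not say which muscle a library came from. Nothing beyond the labels states that the replicates were separate animals, so that p-values measure the spread between these samples.

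The labels and the study's own legend differ in how many libraries each group holds: the labels give equal numbers within a genotype, and the legend equal numbers within a diet, as they would be if CT-WD and OE-CTD traded places. The groups below follow the labels, and the words diet and genotype hold only as far as the labels do. Were the labels of CT-WD and OE-CTD to trade places, each difference between genotypes given here would become a difference between diets, and each difference between diets one between genotypes, while the interaction would keep its value.

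By the labels 471 and 212 of all genes were altered between diets (in CT and in EC-Myc OE mice, unadjusted p under 0.05 and over 1.5-fold, edgeR), against 887 and 1101 between genotypes (on western and on control diet). With the labels traded it would be 1101 and 887 between diets, against 212 and 471 between genotypes. The leptin gene Lep, known to rise with fat stores, had 1.98, 8.16 and 1.55 CPM in CT-CTD, 2.78, 0.870 and 0.356 CPM in CT-WD, 15.9, 9.86, 26.0 and 7.96 CPM in OE-CTD and 3.07, 12.4, 3.96 and 13.3 CPM in OE-WD. By the labels its log2 fold change on western diet was -1.47 in CT and -0.87 in EC-Myc OE mice (adjusted p of 0.770 and 1.0, edgeR), and with the labels traded it would be 1.95 and 2.55 (adjusted p of 0.154 and 0.114, edgeR). Lep is 1 of 5 adipocyte markers, was singled out after its values were seen, and the other 4 were not altered in any comparison. Of the 5, 1 was higher and 4 lower in OE-CTD against CT-CTD, and 4 were higher and 1 lower in OE-WD against CT-WD. With the labels traded these would be the diet comparisons. The other 4 markers would then go against Lep in CT mice, and 1 would in EC-Myc OE mice. The direction of Lep is therefore not shared by the marker list and does not help to tell the labels apart. The study names Zbtb16, Acsl3 and Rabif as top upregulated genes in OE-WD against CT-WD. By the labels their fold changes there were 0.693, 1.12 and 0.866 (edgeR). With the labels traded they were 2.35, 1.56 and 2.05, and only Zbtb16 was past the threshold (adjusted p = 0.00559, edgeR). The study also reports more altered genes in either diet comparison than between genotypes on western diet, as with the labels traded. The legend's group sizes and the study's differences for these genes are thus those of the traded labels. The genotype differences below, Kcnf1 included, may therefore be differences between diets.

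The names of the individual samples also carry numbers, and what they stand for is not given. All 4 OE-WD libraries share a number, 3 of the 4 OE-CTD libraries share another, and each CT library has its own. Any cohort behind these numbers therefore cannot be told apart from genotype, nor from diet within the EC-Myc OE mice, and whether the OE libraries are independent of each other is not stated. Within CT the numbers of CT-CTD 1 and CT-WD 1 are adjacent, and those of the other CT libraries form a separate run, so that each run holds both diets. By a chi-square of counts over genes, divided by its degrees of freedom, OE-CTD 1 to 3, which share a number, differed by 8.02 to 10.97 and OE-WD 1 to 3 by 8.78 to 15.8, less than any CT libraries of a group (17.7 to 53.2). OE-WD 4 differed from OE-WD 1 to 3 by 40.8 to 44.6 although it shares their number, and OE-CTD 4, which has its own, from OE-CTD 1 to 3 by 39.05 to 45.1. If libraries that share a number are not independent, the p-values given here would be too small.

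Summed counts per library ranged from 21833839 to 28519159, and the potassium channel genes together took between 0.0807% and 0.0973% of them. Values of a gene per library are given as CPM, its counts scaled to the library size after TMM correction. Levels of different genes are compared as FPKM, which divide by gene length. The human transgene was not analysed here, and the mouse Myc gene does not check the labels, since it lay between 3.06 CPM (OE-CTD 4) and 13.3 CPM (CT-WD 3). The libraries OE-CTD 4 and OE-WD 4 stood apart from the others, with TMM factors of 0.888 and 0.899 against 0.945 or more, and each was the closest library to the other (Pearson r = 0.990 across genes). The counts of altered genes and the Kcnf1 differences between genotypes were therefore also computed without both, a choice made after seeing the data.

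Potassium channels let potassium leave the muscle fibre, which sets the resting potential and ends the action potential. Inward rectifiers and leak channels hold the membrane near rest, voltage-gated channels open on depolarization, and the ATP-sensitive channel ties the potassium conductance to the energy state of the fibre. In the vessel wall, calcium-activated and ATP-sensitive channels of smooth muscle and endothelium regulate vessel tone.

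Of the 93 genes, 27 were well measured, meaning at least 10 counts in every library and a pass of the filter on low counts. Another 24 passed the filter with fewer than 10 counts in at least 1 library, 37 were below the filter and 5 had no read in any library (Kcnj5, Kcnk9, Kcnk15, Kcns2 and Kcnv1). Well measured genes were thus 29.0% of the potassium channel genes, against 53.3% of all protein-coding genes. Those below the filter reached at most 14 counts in a library (Kcnab3). The 51 genes that passed the filter were tested, and the other 42 are not covered by any test.

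Among the well measured genes were 10 of 30 voltage-gated pore subunits (among them Kcna2, Kcna5, Kcna7, Kcnc1, Kcnc4, Kcnh2 and Kcnq5) and 2 of 10 voltage-gated modifier subunits (Kcnf1 and Kcng4). Of the inward rectifiers 4 of 15 were well measured (Kcnj2, Kcnj8, Kcnj11 and Kcnj12), as were 4 of 14 tandem-pore leak channels (Kcnk2, Kcnk3, Kcnk5 and Kcnk6). The calcium- or sodium-activated channels had 4 of 8 (Kcnma1, Kcnn1, Kcnn2 and Kcnn3), and the accessory subunits 3 of 16 (Kcnab1, Kcne1l and Kcne4). Every one of the 6 classes therefore had members that could be measured, and every class also had members below the filter.

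A few genes made up most of the signal. The 10 genes with the highest mean FPKM held 86.7% ± 1.999 (SD, n = 14 libraries) of the summed FPKM of all 93. Kcna7, a pore subunit of the Shaker class known from muscle, had the highest mean with 66.7 FPKM, followed by Kcnj11, the pore of the ATP-sensitive potassium channel, with 43.4 FPKM. Kcnc4, a Shaw-class pore subunit that inactivates fast, and the inward rectifier Kcnj12 had the same mean of 22.8 FPKM. The modifier subunit Kcng4 came next with 17.3 FPKM, and further down were Kcnc1 with 10.6, Kcnj2 with 9.04, Kcnj8 with 8.44, Kcnab1 with 7.23 and Kcnf1 with 5.48 FPKM. Over the 14 libraries the ranges of Kcna7 (53.4 to 82.0 FPKM) and Kcnj11 (39.1 to 50.6 FPKM) did not overlap, whereas those of the named genes from Kcnc1 down to Kcnf1 overlapped from each to the next.

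**Figure D1:**
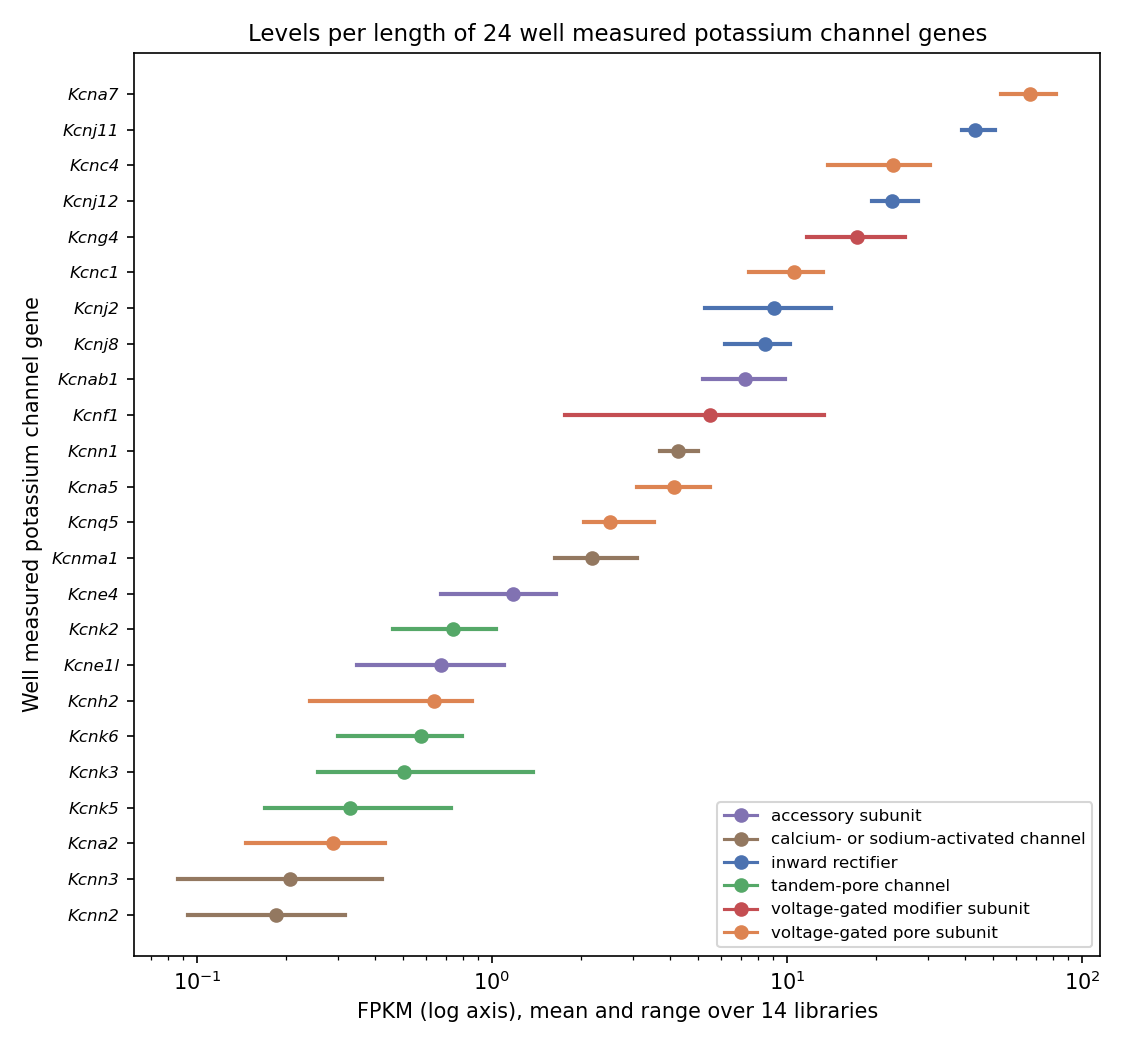
Mean FPKM (points) and range over 14 libraries (lines) of 24 well measured potassium channel genes on a log axis, coloured by class. Kcna7 and Kcnj11 lie highest, and Kcnf1 has the widest relative span of the 24, from 1.78 to 13.4 FPKM.

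By class, voltage-gated pore subunits held 48.9% ± 3.48 of the summed FPKM, inward rectifiers 33.5% ± 1.47, modifier subunits 9.31% ± 2.28, accessory subunits 4.06% ± 0.661, calcium- or sodium-activated channels 2.88% ± 0.259 and tandem-pore channels 1.29% ± 0.258 (SD, n = 14 libraries each). The summed FPKM of all 93 genes was 252.1 ± 4.41 in CT-CTD (n = 3), 241.3 ± 10.1 in CT-WD (n = 3), 256.5 ± 10.7 in OE-CTD (n = 4) and 252 ± 15.2 in OE-WD (n = 4), and the groups of each comparison overlapped. The summed FPKM of the pore subunits was 119.04 ± 4.42 in CT-CTD, 107.7 ± 7.32 in CT-WD, 133.6 ± 10.6 for OE-CTD and 127.1 ± 12.6 for OE-WD (SD). CT-WD lay below CT-CTD and CT-CTD below OE-CTD without overlap in this class, by margins smaller than the SD within each group.

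Each gene was tested with edgeR for the diet difference in each genotype, for the genotype difference on each diet, and for the diet by genotype interaction. A gene was counted as altered at an adjusted p under 0.05 and a fold change over 1.5, and separately at an unadjusted p under 0.05 with the same fold change. In CT-WD against CT-CTD 0 of 51 potassium channel genes were altered, where 0% of the 15458 genes tested were. DESeq2 and limma also gave 0 of the 51, against 0.201% and 0% of all genes. At the unadjusted level 3 were altered (Kcnh1, Kcnt1 and Kcnv2, all higher on western diet), against 3.05% of all genes. In OE-WD against OE-CTD 0 were altered, against 0.00647% of all genes, again with 0 by DESeq2 and limma; at the unadjusted level it was 1 (Kcnq1, higher on western diet), against 1.37% of all genes.

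Between genotypes on western diet (OE-WD against CT-WD), 1 of 51 was altered (Kcnf1, lower in OE-WD), against 0.563% of all genes. At the unadjusted level there were 6 (Kcnh7, Kcnk2 and Kcns1 higher, Kcnf1, Kcnk1 and Kcnt1 lower), which is 11.8% of the 51, against 5.74% of all genes. On control diet (OE-CTD against CT-CTD), 1 was altered (again Kcnf1, lower in OE-CTD), against 1.91% of all genes. At the unadjusted level there were 4 (Kcnk5, Kcnk6 and Kcnmb1 higher, Kcnf1 lower), or 7.84% of the 51, against 7.12% of all genes. For the interaction 0 were altered, against 0% of all genes. DESeq2 and limma also gave 0, against 0.0582% and 0% of all genes, and 0 were altered at the unadjusted level, against 2.7%.

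A single gene is 1.96% of the 51, so that 1 call more or less moves these shares by that much. The adjusted share of all genes moved when 1 library was left out. It went from 0.026% without OE-WD 2 to 5.72% without CT-WD 1 in OE-WD against CT-WD. In OE-CTD against CT-CTD it went from 0.403% without CT-CTD 3 to 2.78% without CT-WD 1. The unadjusted counts moved when 1 library was left out, and the number tested moved with the filter. They went from 2 of 54 without CT-WD 3 (against 2.60% of all genes) to 9 of 53 without CT-CTD 1 (4.11%) in CT-WD against CT-CTD, and from 3 of 54 without CT-WD 2 (4.56%) to 8 of 54 without CT-WD 1 (11.8%) in OE-WD against CT-WD. The single call in OE-WD against OE-CTD was lost without OE-CTD 4 or OE-WD 1 (0 in each case, against 1.49% and 1.39% of all genes), and Kcnq1 was still called without both OE-CTD 4 and OE-WD 4. Among these calls Kcnh1, Kcnh7 and Kcns1 stayed at 17 counts or fewer in every library. Kcnh1, Kcnh7, Kcnk1, Kcnk5 and Kcns1 are named because they make up these counts and were chosen after their values were seen. The median log2 fold change of the 51 was 0.00 in CT-WD against CT-CTD, 0.00 in OE-WD against OE-CTD, 0.11 in OE-WD against CT-WD and 0.17 in OE-CTD against CT-CTD, where the median of all genes lay between 0.00 and 0.01. Of the 51, 30 were positive and 21 negative in each genotype comparison. The genotype comparisons share no libraries with each other, but each shares libraries with both diet comparisons.

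**Figure D2:**
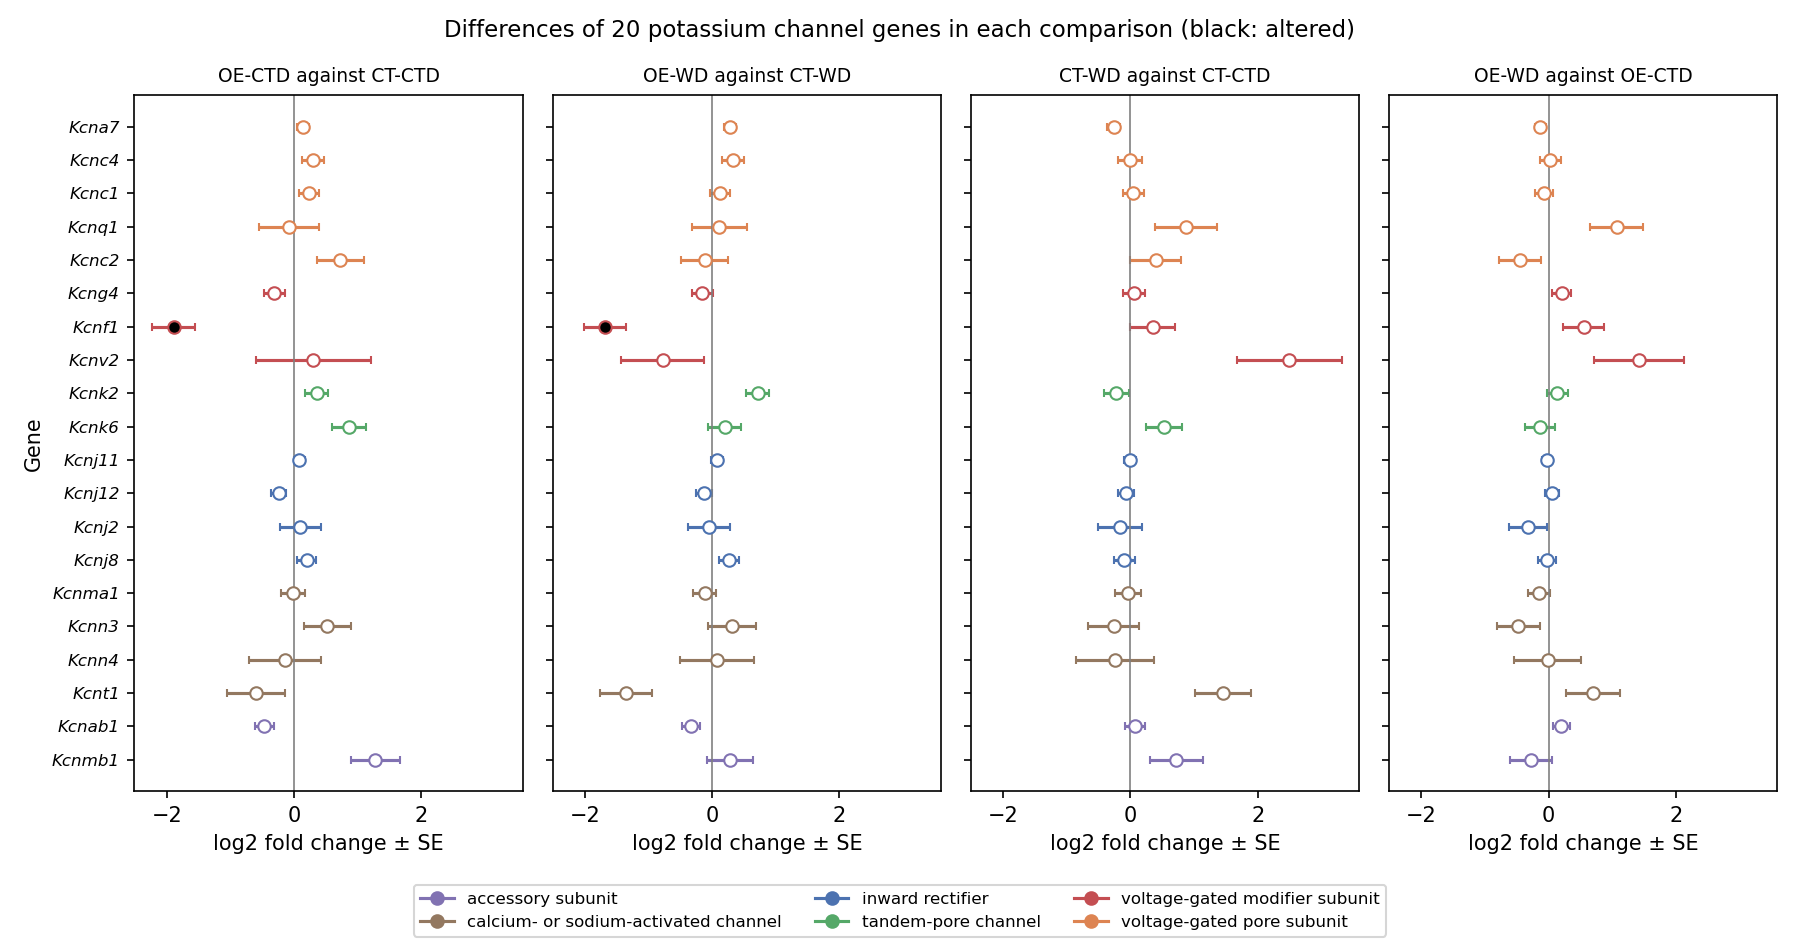
Log2 fold change with its standard error (edgeR) for 20 named potassium channel genes in 4 comparisons, coloured by class, with black points for genes altered at the adjusted level. Kcnf1 is the only black point, at -1.89 in OE-CTD against CT-CTD and -1.69 in OE-WD against CT-WD, and the abundant genes lie near 0.

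The voltage-gated pore subunits include the channels that repolarize the fibre after an action potential. Kcna7 had 124, 136 and 140 CPM in CT-CTD and 118, 110 and 106 CPM in CT-WD, and 154, 143, 132 and 161 CPM in OE-CTD and 118, 154, 132 and 135 CPM in OE-WD. All 3 CT-WD libraries thus lay below all CT-CTD libraries, and OE-WD overlapped with every other group. The difference between the CT groups was small, with a log2 fold change of -0.26 ± 0.103 (SE; adjusted p = 0.604, edgeR), and was not past the threshold.

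The Shaw-class genes Kcnc4 and Kcnc1 differed by less than 1.5-fold in each comparison. Kcnc4 ranged from 45.9 to 101 CPM and Kcnc1 from 63.9 to 113 CPM, and for both the highest value was in OE-WD 4. Kcnc4 was higher in OE-CTD than in CT-CTD without overlap, by a log2 fold change of 0.29 that was not past the threshold (adjusted p = 0.441, edgeR). Kcnq1, a pore subunit best known from heart and epithelia, was low, with 5 to 48 counts per library. It lies opposite the antisense gene Kcnq1ot1, which had more reads (2.01 against 0.851 CPM on average). The strand setting of the counting is not given, so reads of the pair cannot be told apart and its value in OE-WD against OE-CTD (log2 fold change 1.07 ± 0.419, adjusted p = 1.0, edgeR) is uncertain. The labels do not state that libraries of the same replicate number are pairs. Taken as such, Kcnq1 was higher on western diet in 4 of 4 OE pairs and 3 of 3 CT pairs. With these pairs as a block its OE value was 1.10 ± 0.326 (SE, adjusted p = 0.172, edgeR), not past the threshold. Kcnc2, also of the Shaw class, had 9 to 25 counts per library and an interaction of -0.85 ± 0.519 in log2 units (adjusted p = 0.877, edgeR).

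Modifier subunits do not form working channels on their own; Kcnf1 and Kcng4 encode such electrically silent subunits, which join voltage-gated pore subunits and change how they open. Kcnf1 was singled out in an earlier analysis of these same data, from the difference between OE-WD and CT-WD, so that difference is not independent support here. Kcnf1 (ENSMUSG00000051726) lies on chromosome 12 (chr12:17172100-17176888 on GRCm38, minus strand), in 1 annotated exon that holds the whole coding sequence, and no other gene in the count table overlaps it. Its counts were between 165 and 1489 per library.

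Kcnf1 had 58.9, 17.4 and 30.2 CPM in CT-CTD and 38.1, 54.6 and 43.0 CPM in CT-WD. In the EC-Myc OE groups it had 7.82, 10.3, 11.6 and 8.42 CPM in OE-CTD and 22.7, 10.7, 9.95 and 12.7 CPM in OE-WD. All OE libraries lay below all CT libraries of the same diet, and across diets only OE-WD 1 exceeded a CT library, CT-CTD 2. The CT-CTD libraries themselves spread more than 3-fold.

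Between genotypes, Kcnf1 was lower by a log2 fold change of -1.89 ± 0.338 in OE-CTD against CT-CTD (SE; 3.71-fold, adjusted p = 0.0099, edgeR). In OE-WD against CT-WD the log2 fold change was -1.69 ± 0.332 (SE; 3.23-fold, adjusted p = 0.0322, edgeR). Diet made no difference past the threshold, with log2 fold changes of 0.35 ± 0.350 in CT and 0.55 ± 0.322 in EC-Myc OE mice (SE; adjusted p of 0.906 and 1.0, edgeR). The interaction was 0.20 (adjusted p = 0.973, edgeR), so the genotype difference was not shown to depend on diet; its sign turned without CT-CTD 1 (-0.37) and without OE-WD 1 (-0.13).

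The call on control diet held when any 1 library was left out, with log2 fold changes from -2.22 to -1.32, and over all alternatives except the exchanged names its adjusted p lay between 2.50e-07 and 0.0400. Without both OE-CTD 4 and OE-WD 4 it was -1.84 (adjusted p = 0.0283, edgeR). The call on western diet was less stable: the log2 fold change stayed between -2.02 and -1.46, but the adjusted p ranged from 5.73e-06 to 0.561. It was lost without CT-WD 2 (adjusted p = 0.122), CT-WD 3 (0.123), OE-CTD 2 (0.0518), OE-WD 2 (0.117), OE-WD 3 (0.0999) or OE-WD 4 (0.0883), and without OE-CTD 4 and OE-WD 4 together (log2 fold change -1.65, adjusted p = 0.0910), all with edgeR. It was also lost when edgeR was fitted to these groups alone (adjusted p = 0.0756) and with limma (0.0555 and 0.0568, by pseudocount). If CT-WD and OE-CTD traded labels, the Kcnf1 difference would be one between diets in both genotypes (-1.89 in CT and -1.69 in EC-Myc OE mice in log2 units) and not one between genotypes. The group sizes in the legend and the differences the study reports for Zbtb16, Acsl3 and Rabif are those of that case. Of 5 adipocyte markers, all but Lep were lower in OE-CTD than in CT-CTD, and 4, Lep included, were higher in OE-WD than in CT-WD.

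**Figure D3:**
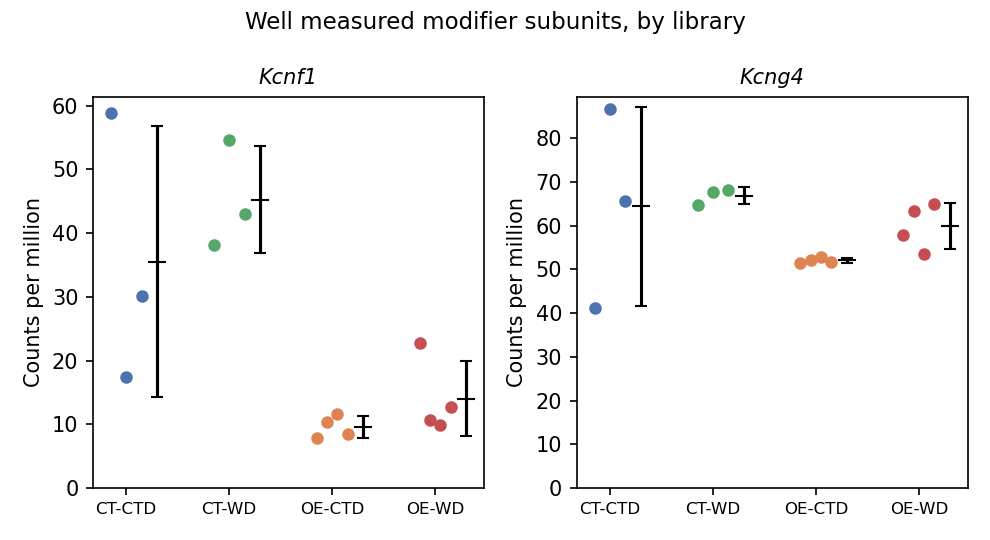
CPM of the modifier subunits Kcnf1 and Kcng4 in each library (points), with the mean and SD of each group (bars; n = 3, 3, 4 and 4). Kcnf1 lies between 17.4 and 58.9 CPM in the CT libraries and between 7.82 and 22.7 CPM in the OE libraries, and Kcng4 overlaps between genotypes on each diet.

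Kcng4 did not follow Kcnf1 to the same extent. It had 41.1, 86.7 and 65.7 CPM in CT-CTD, 64.7, 67.7 and 68.2 CPM in CT-WD, 51.5, 52.2, 52.9 and 51.7 CPM in OE-CTD and 57.9, 63.4, 53.5 and 65.0 CPM in OE-WD. CT-CTD 1 had the lowest Kcng4 and the highest Kcnf1 of its group. The log2 fold change was -0.31 ± 0.163 in OE-CTD against CT-CTD and -0.16 in OE-WD against CT-WD, and neither was past the threshold (adjusted p = 0.390 in the former, edgeR).

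The summed FPKM of all 10 modifier subunits was 26.8 ± 2.06 in CT-CTD and 30.02 ± 2.36 in CT-WD, against 17.6 ± 0.520 for OE-CTD and 21.1 ± 1.94 for OE-WD (SD), and the CT and OE libraries did not overlap in it (25.4 or more against 22.6 or less). Nearly all of this sum came from Kcng4 and Kcnf1. Kcng4 overlapped between CT and OE libraries (11.7 to 25.0 against 14.7 to 19.0 FPKM). The separation of the sum therefore depended on Kcnf1, which was singled out from these data, and was not shown for the class.

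The other modifier subunits were low. Kcnv2, known from photoreceptors, had 3, 4 and 2 counts in CT-CTD, 16, 10 and 24 counts in CT-WD, 4, 1, 9 and 1 counts in OE-CTD and 14, 19, 9 and 1 counts in OE-WD. The CT-WD libraries were all above the CT-CTD libraries, while OE-WD 4 with its 1 count was as low as the lowest OE-CTD library. Its log2 fold change was 2.50 ± 0.821 in CT-WD against CT-CTD (SE; adjusted p = 0.555, edgeR) and 1.42 ± 0.711 in OE-WD against OE-CTD (SE; adjusted p = 1.0, edgeR).

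The upstream sequence of Kcnf1 is shown because c-Myc binds DNA at the E-box CACGTG. The 250 bases before the start of Kcnf1 in RefSeq (chr12:17176889-17177138, GRCm38.p6, minus strand), written 5′ to 3′ on the strand of the gene, are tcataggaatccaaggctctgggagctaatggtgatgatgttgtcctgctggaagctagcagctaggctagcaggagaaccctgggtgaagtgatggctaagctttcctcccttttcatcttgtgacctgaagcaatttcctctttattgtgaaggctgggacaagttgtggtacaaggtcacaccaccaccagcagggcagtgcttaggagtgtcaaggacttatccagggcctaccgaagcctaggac and no base is in capitals, since no motif was found. Neither CACGTG nor the broader form CANNTG, both of which read the same on either strand, is in this window. RefSeq upstream windows of this length were matched by symbol for 68 of the 93 genes. CACGTG was in the windows of 5 of these 68 genes (7.35%), against 6.86% of 27025 genes in all, and CANNTG, which includes CACGTG, in 69.1% against 69.3%.

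The tested genes with CACGTG were Kcnab1, Kcne4, Kcnj2 and Kcnn4, and their matches are given with 20 bases on either side, on the strand of the gene and with the motif in capitals. Kcnab1 has 2 annotated starts with a match.
Kcnab1 (chr3:65108832-65108877, plus strand): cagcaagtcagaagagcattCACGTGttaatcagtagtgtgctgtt
Kcnab1 (chr3:65188038-65188083, plus strand): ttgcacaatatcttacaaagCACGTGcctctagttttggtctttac
Kcne4 (chr1:78816837-78816882, plus strand): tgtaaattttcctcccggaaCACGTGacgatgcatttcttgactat
Kcnj2 (chr11:111066060-111066105, plus strand): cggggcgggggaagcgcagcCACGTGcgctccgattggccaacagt
Kcnn4 (chr7:24370110-24370155, plus strand): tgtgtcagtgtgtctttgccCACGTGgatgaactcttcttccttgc
None of these 4 genes was altered in any comparison at the adjusted level. These are matches of letters in a window, and binding was not measured.

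With all libraries, 0 of the 7 tested inward rectifiers were altered at the adjusted or the unadjusted level in any test by edgeR, and 0 at the adjusted level by DESeq2 and limma. Of all genes, 0% to 1.91% were altered at the adjusted and 1.37% to 7.12% at the unadjusted level by edgeR. By DESeq2 and limma it was 0% to 3.26% at the adjusted level. Kcnj11, the pore of the ATP-sensitive channel of muscle fibres, had 152, 136 and 137 CPM in CT-CTD, 135, 150 and 137 CPM in CT-WD, 144, 147, 149 and 162 CPM in OE-CTD and 146, 132, 147 and 167 CPM in OE-WD. Its groups overlapped in each comparison, and its log2 fold changes were between -0.02 and 0.09 in the 4 comparisons. Kcnj8, the pore of the ATP-sensitive channel of vessel walls, ranged from 14.3 to 24.0 CPM, and per length it stood at 0.179 to 0.206 of Kcnj11 in the group means. Abcc9, a sulfonylurea receptor subunit that surrounds these pores, was somewhat lower per length in every library, with Kcnj11 to Abcc9 FPKM ratios of 1.22 ± 0.183 in CT-CTD, 1.37 ± 0.0565 in CT-WD, 1.48 ± 0.197 for OE-CTD and 1.34 ± 0.0950 for OE-WD (SD).

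Kcnj2 and Kcnj12 carry the classical inward rectifier current that keeps the resting potential near the potassium equilibrium. Kcnj2 had 70.6, 38.3 and 32.7 CPM in CT-CTD, 62.0, 34.7 and 28.9 CPM in CT-WD, 55.5, 66.0, 50.1 and 30.6 CPM in OE-CTD and 57.4, 39.3, 39.4 and 25.8 CPM in OE-WD. High and low values occurred in every group, and the groups of each comparison overlapped. Kcnj2 was lower on western diet in 3 of 3 CT pairs and in 3 of 4 OE pairs. These pairs join libraries of the same replicate number, and the labels do not state that they belong together. The log2 fold changes were -0.17 in CT and -0.32 in EC-Myc OE mice, and neither was past the threshold (adjusted p of 0.964 and 1.0, edgeR), nor with the pairs as a block (adjusted p of 0.670 and 0.187, edgeR). Kcnj12 ranged only from 49.3 to 69.6 CPM, with a log2 fold change of -0.24 ± 0.118 in OE-CTD against CT-CTD (SE; adjusted p = 0.345, edgeR), which was not past the threshold.

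Tandem-pore channels carry the leak current that persists at rest. Kcnk2, a leak channel opened by stretch and lipids, had 3.12, 2.59 and 2.86 CPM in CT-CTD, 2.86, 2.08 and 2.40 CPM in CT-WD, 3.49, 3.93, 3.17 and 4.08 CPM in OE-CTD and 4.67, 4.49, 3.66 and 3.29 CPM in OE-WD. Every OE library lay above every CT library. The log2 fold change was 0.71 ± 0.184 in OE-WD against CT-WD (SE; adjusted p = 0.0812, edgeR) and 0.36 ± 0.182 in OE-CTD against CT-CTD (SE; adjusted p = 0.363, edgeR), so neither was past the threshold. On western diet the call was made by DESeq2 (adjusted p = 0.0262) and by edgeR without CT-WD 1 (log2 fold change 0.85, adjusted p = 0.0227), within a range of 0.0227 to 0.566 over the alternatives. Kcnk2 spans the pseudogene Pdcd5-ps on the same strand, which had more reads (13.9 against 3.34 CPM on average), so its value is uncertain.

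Kcnk6, a leak channel found in vessel walls, had 1.86, 1.34 and 1.15 CPM in CT-CTD, 2.89, 1.55 and 1.78 CPM in CT-WD, 2.65, 2.67, 3.01 and 2.19 CPM in OE-CTD and 2.02, 3.02, 2.59 and 1.93 CPM in OE-WD. CT-CTD was the low group, and it overlapped with CT-WD but not with either OE group. In OE-CTD against CT-CTD the log2 fold change was 0.86 ± 0.267 (SE; adjusted p = 0.108, edgeR); DESeq2 gave an adjusted p of 0.0463, within a range of 0.0463 to 0.363 over the alternatives. The interaction was -0.66 ± 0.370 in log2 units (adjusted p = 0.857, edgeR).

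Among the calcium- or sodium-activated channels, Kcnn1, a small-conductance calcium-activated channel, had the highest mean with 4.26 FPKM, and the large-conductance channel Kcnma1 had 2.19 FPKM. Kcnma1 ranged from 25.8 to 48.2 CPM, and its log2 fold changes were between -0.14 and -0.02 in the 4 comparisons. Kcnn3 and Kcnn4, the small- and intermediate-conductance channels known from endothelium, were low, with 17 to 78 and 3 to 25 counts per library, and their groups overlapped in all 4 comparisons. The standard error of the log2 fold change was 0.338 or more for Kcnn3 and 0.530 or more for Kcnn4 in these comparisons.

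Kcnt1, a sodium-activated channel, was at 4 to 36 counts per library. It had 0.514, 0.293 and 0.596 CPM in CT-CTD, 1.05, 1.74 and 1.11 CPM in CT-WD, 0.153, 0.363, 0.412 and 0.306 CPM in OE-CTD and 0.623, 0.281, 0.723 and 0.402 CPM in OE-WD. CT-WD was above all other libraries. Its log2 fold change was 1.46 ± 0.443 in CT-WD against CT-CTD and -1.35 ± 0.404 in OE-WD against CT-WD (SE; adjusted p of 0.507 and 0.118, edgeR), and neither passed the threshold. The interaction, which tests whether the diet effects differ, was -0.76 ± 0.618 (adjusted p = 0.916, edgeR).

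Of the accessory subunits, Kcnab1, a cytoplasmic subunit that binds Shaker-class channels, was the most abundant. It had 55.6, 77.2 and 60.4 CPM in CT-CTD, 71.2, 73.5 and 57.4 CPM in CT-WD, 46.5, 55.4, 44.2 and 40.2 CPM in OE-CTD and 61.3, 45.1, 61.0 and 46.6 CPM in OE-WD. OE-CTD was below CT-CTD without overlap, though OE-CTD 2 and CT-CTD 1 nearly met, and OE-WD overlapped with CT-WD. In OE-CTD against CT-CTD its log2 fold change was -0.47 ± 0.147 (SE; adjusted p = 0.114, edgeR), under the 1.5-fold minimum. A sense-overlapping gene, Gm38048, lies within it with 8.40 CPM on average.

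Kcnmb1, the accessory subunit of the large-conductance channel in smooth muscle, had 12, 4 and 10 counts in CT-CTD, 16, 10 and 15 counts in CT-WD, 31, 19, 21 and 14 counts in OE-CTD and 16, 21, 19 and 16 counts in OE-WD. In CPM the CT-CTD libraries were below all OE-CTD libraries. The log2 fold change was 1.28 ± 0.385 in OE-CTD against CT-CTD and the interaction -0.995 ± 0.530 (SE; adjusted p of 0.0989 and 0.857, edgeR), and neither passed the threshold.

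Partners of potassium channels outside the rule were taken as a list of 12 genes, such as sulfonylurea receptors and leucine-rich repeat subunits, of which 10 were tested. At the adjusted level 1 was altered, in OE-CTD against CT-CTD (1.91% of all genes), and 0 in the other 4 tests. This was Lrrc55, an accessory subunit of the large-conductance channel, with a log2 fold change of 2.11 ± 0.519 (SE; adjusted p = 0.0425, edgeR). It was low, at 0.158, 0.460 and 0.119 CPM in CT-CTD and 1.15, 1.48, 0.742 and 0.868 CPM in OE-CTD, without overlap. At the unadjusted level Lrrc55 (log2 fold change 1.81) and Lrrc38 (0.61) were higher in OE-WD against CT-WD (5.74% of all genes), only Lrrc55 was called in OE-CTD against CT-CTD (7.12%), and 0 partners were altered in the diet comparisons and the interaction. A list of 15 other genes of membrane excitability, such as sodium and chloride channels and the sodium pump, had 14 tested genes and 0 altered in any test by edgeR; at the unadjusted level there was 1 in CT-WD against CT-CTD (Atp1b4, higher; 3.05% of all genes), 1 in OE-CTD against CT-CTD (Slc12a2, lower; 7.12%) and 1 for the interaction (Atp1b4, negative; 2.7%). Lrrc55, Lrrc38, Atp1b4 and Slc12a2 were chosen after their values were seen.

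Markers of the tissue and of other cell types were measured beside the channels, and in bulk muscle fewer cells of a type and less RNA per cell cannot be told apart. Muscle fibre markers were present in every library, with Acta1 the most abundant, and all 5 neuron markers were below the filter, at no more than 0.0801 summed FPKM in a library. All 6 endothelial markers were measured, with Cdh5 the most abundant, and their summed FPKM was 54.2, 54.1 and 56.6 in CT-CTD, 62.3, 54.7 and 57.2 in CT-WD, 70.9, 71.4, 65.9 and 66.4 for OE-CTD and 72.4, 77.9, 74.2 and 78.8 for OE-WD. Every OE library was above every CT library. The log2 fold change was positive in 6 of 6 genes in both genotype comparisons, with medians of 0.39 on western and 0.33 on control diet. By edgeR 0 were altered at the adjusted level (0.563% of all genes on western and 1.91% on control diet) or the unadjusted level (5.74% and 7.12%). Kcnf1 was lower, and Kcnk2 had higher values, in the same OE groups, and the part of these markers in either difference was not tested.

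Of the macrophage markers 4 of 4 were altered at the unadjusted level in OE-CTD against CT-CTD, all higher (7.12% of all genes), and 0 at the adjusted level by edgeR. Their summed FPKM, led by Cd68, was 5.19 ± 1.81 in CT-CTD, 7.05 ± 3.62 in CT-WD, 10.3 ± 2.90 for OE-CTD and 9.27 ± 3.16 for OE-WD (SD). Smooth muscle markers, led by Acta2, had group means from 76.1 to 83.0 summed FPKM. Slow fibre markers had group means from 1467 to 1727 and fast fibre markers from 27151 to 30821 summed FPKM, with overlap between the groups of each comparison. Muscle fibre, slow fibre, fast fibre and smooth muscle markers had 0 genes altered at the adjusted or the unadjusted level by edgeR. Pericyte, adipocyte and satellite cell markers had 0 genes altered at the adjusted level by edgeR, and 1, 1 and 0 at the unadjusted level in each genotype comparison (5.74% of all genes on western and 7.12% on control diet). Higher values in OE were not particular to endothelial markers. Pericyte and macrophage markers were each positive in 4 of 4 genes in both genotype comparisons. Their median log2 fold changes were 0.465 and 0.457 on western and 0.178 and 1.01 on control diet. Smooth muscle, adipocyte and satellite cell markers were mixed in direction. Which cells the channel transcripts came from was not tested.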

How the data were processed

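RNA of 14 skeletal muscle libraries was sequenced after poly-T bead selection. Unnormalized counts of reads per gene were deposited by the authors. The authors also gave FPKM, counts scaled by gene length and by a sum that amounted to 79.9% to 98.0% of all counts of a library. The submitters' processing notes list HISAT2 2.0.5, featureCounts 1.5.0-p3 and the build mm10; the strand setting is not given in the sources used here.

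Groups followed the labels. The test across all genes was that of edgeR 4.0.16, run in R 4.3.3 on counts (TMM, filterByExpr, quasi-likelihood test, 1 model of 4 group means over 14 libraries), with Benjamini-Hochberg adjustment over the 15458 genes that passed the filter; log2 fold changes carry the standard error implied by the test. The biological coefficient of variation was 17.1%. Apart from the alternatives with limma, FPKM were used only as levels. The procedure was tested on simulated data.

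Alternatives were DESeq2 1.42.0 size factors in edgeR, the DESeq2 Wald test, limma 3.58.1 on log2(FPKM + 1) and log2(FPKM + 0.1), no filter, only the groups compared, a replicate block, CT-WD and OE-CTD with labels traded, each library left out, and, chosen after seeing the data, OE-CTD 4 and OE-WD 4 left out together. Deviations of libraries with the same replicate number correlated across genes at 0.413, 0.130 and 0.265 in CT-WD against CT-CTD and at 0.113, 0.180, 0.146 and 0.460 in OE-WD against OE-CTD, all over 0.1, so the numbers were taken to pair these libraries, from this check alone. Deviations of libraries with different numbers correlated at -0.337 to 0.1445 and at -0.300 to 0.154, so some exceeded the lowest values of the same number. The check therefore did not settle which libraries are pairs, and nothing in the labels does. The paired and block values rest on that uncertain pairing. Libraries of a group were checked for duplicates by a chi-square over genes, which divided by its degrees of freedom gave 8.02 to 53.2, lowest among OE-CTD 1 to 3.

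Named genes were Kcnf1, every potassium channel gene altered at the adjusted level, the 10 with the highest mean FPKM, the 4 with the smallest p in each test, and Kcnj2, Kcnj12, Kcnj11, Kcnj8, Kcnma1, Kcnn3 and Kcnn4. Some genes and 1 marker list are not reported here. Members and lists were chosen with earlier results of these data known. Upstream sequences were from RefSeq (GRCm38.p6), and gene features of Kcnf1 from GENCODE.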

Additional observations from a re-analysis of the deposited data

Results flagged for a closer look

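In groups of 4 libraries, the gap between the most distant library and its nearest neighbour was set against the range of the group for 20 genes, in 40 groups. It was large in 2, and chance alone gives this in about 1 in 20 groups. Kcnj12 in OE-CTD stood out through OE-CTD 4, with 61.3 CPM where the other 3 libraries lay between 50.01 and 51.2 CPM (gap over range 0.895). Kcnc2 in OE-CTD stood out through OE-CTD 1, with 0.537 CPM against 0.817 to 0.866 CPM in the others (gap over range 0.850).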

How the results depend on the processing

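Of the values for single genes, 381 kept their direction and side of the threshold across alternatives, 11 fell short of it, 3 passed it and 13 changed sign; of the counts, 189 stayed within 1.5 times and 41 did not. Causes were not tested unless stated. No alternative shifted the median of all genes by more than 0.1 (log2), and minimums of 5 or 20 counts left the number of well measured genes within 1.5 times.

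Trading the labels of CT-WD and OE-CTD, which by construction swaps comparisons, made the altered genes 1 in CT-WD against CT-CTD, 1 in OE-WD against OE-CTD, 0 in OE-WD against CT-WD and 0 in OE-CTD against CT-CTD, and the unadjusted counts 6 in OE-WD against OE-CTD and 1 in OE-WD against CT-WD. The shares of all genes swapped in the same way. Log2 fold changes then turned to -0.59 (Kcnt1), 0.14 (Kcna7) and -1.89 (Kcnf1) in CT-WD against CT-CTD, -0.77 (Kcnv2) and -1.69 (Kcnf1) in OE-WD against OE-CTD, 0.55 (Kcnf1) and 0.70 (Kcnt1) in OE-WD against CT-WD, and 0.35 (Kcnf1) and 0.0656 (Kcnab1) in OE-CTD against CT-CTD.

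With DESeq2, altered genes were 2 in OE-WD against CT-WD (Kcnf1 and Kcnk2, against 1.99% of all genes) and 2 in OE-CTD against CT-CTD (Kcnf1 and Kcnk6, against 3.26%). In OE-WD against CT-WD there were 0 with only the groups compared (0.0269% of all genes), 0 with limma at either pseudocount (0.194%) and 0 without OE-CTD 4 and OE-WD 4 (0.026%). At the unadjusted level, no filter gave 5, 6 and 2 of 88 in the CT diet, OE diet and interaction tests, against 2.98%, 2.39% and 3.24% of all genes. Limma on log2(FPKM + 1) gave 0 and 0 in the CT and OE diet comparisons (0.666% and 0.201% of all genes). It gave 1 and 1 in the genotype comparisons on western and control diet (1.71% and 2.15%). Leaving out OE-CTD 4 and OE-WD 4 gave 2 in OE-WD against OE-CTD (1.24%). The Kcnf1 interaction was -0.0782 and -0.0293 with limma at a pseudocount of 1 and 0.1, and -0.37 to 0.53 with 1 library left out (-0.37 without CT-CTD 1, -0.13 without OE-WD 1).

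With 1 library left out, altered genes were 0 to 3 in OE-WD against CT-WD. Without CT-WD 1 there were 3 of 54 (Kcnf1, Kcnj15 and Kcnk2), or 5.56%, against 5.72% of all genes. Without CT-WD 2, CT-WD 3, OE-CTD 2, OE-WD 2, OE-WD 3 or OE-WD 4 there were 0, against 0.026% to 0.28% of all genes. In OE-CTD against CT-CTD there was 1 in every case, against 0.403% to 2.78% of all genes. Unadjusted counts were 2 to 9 in CT-WD against CT-CTD (9 without CT-CTD 1, 5 without CT-CTD 3, 6 without CT-WD 1 or CT-WD 2), 0 to 3 in OE-WD against OE-CTD (3 without OE-CTD 1, 2 without OE-CTD 2 or OE-WD 4, 0 without OE-CTD 4 or OE-WD 1), 3 to 8 in OE-WD against CT-WD (3 without CT-WD 2) and 0 to 4 for the interaction (4 without CT-CTD 1, 1 without CT-WD 1 or CT-WD 2). Of all genes, 2.6% to 5.43%, 1.23% to 1.78%, 3.75% to 11.8% and 2.39% to 4.91% were called in these tests.

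With a replicate block, 0 potassium channel genes were altered in OE-WD against CT-WD, where 0% of all genes were. Kcnf1 was then at -1.74 (adjusted p = 0.561, edgeR, in a range of 5.73e-06 to 0.561 over the alternatives). Same-numbered deviations there correlated at -0.268, -0.202 and -0.084, so these libraries share only a number, as in OE-CTD against CT-CTD (0.036, -0.102 and -0.146), and the block used numbers 1 to 3 only. The replicate block left the other counts of calls within 1.5 times. Limits were few libraries per group, unknown muscle per library, and low counts for 24 tested genes.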
